A study of Danio rerio with 14 samples.

Results

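The genes described here encode many, not all, splicing factors and heterogeneous nuclear ribonucleoproteins (hnRNPs) of the zebrafish, and some relatives by name that act outside splicing. They were chosen by symbol: each gene whose name begins with srsf, snrp, sf3, hnrnp, prpf, lsm followed by a digit, or u2af, and which has at least 1 probe set assigned to it alone, was taken with the probe set that had the highest mean. This gave 76 genes of the 8793 with such a probe set. They comprised 19 hnRNPs, 13 SR proteins (srsf), 11 Sm and other snRNP proteins (snrp), 11 Sm-like proteins (lsm), 11 pre-mRNA processing factors (prpf), 9 subunits of SF3A and SF3B (sf3) and 2 subunits of the U2 auxiliary factor (u2af).

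Introns are removed by the spliceosome, which is built anew on each intron from small nuclear ribonucleoproteins (snRNPs). Each snRNP carries a small nuclear RNA held in a ring of Sm proteins or, for U6, of LSM proteins. SR proteins mostly bind exons and recruit the spliceosome, whereas hnRNPs coat the transcript and often repress the sites they cover. In the zebrafish, the early embryo lives on messenger RNAs loaded by the mother until its own genome is switched on in the blastula, so both the supply of splicing factors and the demand for them can shift over the stages sampled here.

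RNA was hybridised to Affymetrix zebrafish arrays, 14 in all, with 2 arrays in each of 7 groups. The groups were whole embryos kept in water with retinoic acid (RA) and harvested at 4, 6 or 9 hours post fertilization (hpf), untreated whole embryos of the same 3 stages, and ZF4, a fibroblastic cell line derived from zebrafish embryos. The embryos came from natural matings of the Ekkwill strain, and no mutation or transgene is named for them. Those in RA had been exposed from an early cleavage stage until harvest. Nothing in the labels states if paired arrays were made from different clutches or cultures, so the p-values given below measure the spread between these arrays, which may be technical. ZF4 is a single established line, and its culture differs from an embryo in many ways besides cell type. Whole embryos hold many cell types, and in such samples fewer cells of a type cannot be told apart from less RNA per cell.

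All values are on the log2 scale of the deposited expression values, and a difference of 1 is a change of 2-fold. Probes differ in how well they bind, so a higher level of 1 probe set than of another does not show more RNA, and genes were not ranked by level. A gene was said to rise or fall where limma gave an adjusted p below 0.05, with the adjustment over all 15502 probe sets that are not controls. Tag controls, which should detect no zebrafish transcript, set the background: 95% of their values lay at or below 5.302. Of the 76 genes, 73 lay above it on all 14 arrays, and the median gene of the set lay between 10.2 and 11.2 on every array while the median of all probe sets lay between 6.11 and 6.31. The probe set of snrpd2, which encodes a protein of the Sm ring, exceeded background on 1 array alone, and its values are not a measure of that gene. The remaining exceptions, hnrnpua and lsm14b, are described below.

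The labels of the groups were checked against marker genes. In ZF4 the collagen genes col1a1a and col1a2 lay at 11.5 to 11.7, against at most 5.97 on any embryo array. Of 12 fibroblast and matrix markers 8 were higher and 2 lower in ZF4 than in untreated 9 hpf embryos. The 2 lower ones were thy1, at 4.75 and 3.48 in ZF4 against 7.84 and 8.11 in embryos, and fn1b, at 5.46 and 4.83 against 9.01 and 8.53. In ZF4 none of 9 early embryo markers exceeded background, whereas 1 of them, pou5f3, lay between 11.1 and 12.4 in embryos. The enveloping layer keratins krt8 and krt18a.1 were also high in ZF4, at 12.4 and 12.4 for krt8 and 12.08 and 12.03 for krt18a.1. A pair of features of the embryo arrays bear on what follows. At 4 hpf the second array of each treatment had more of the enveloping layer markers than the first: krt4, a keratin of the enveloping layer, read 8.91 on the second and 4.66 on the first RA array, and 10.2 on the second and 5.56 on the first untreated array. At 9 hpf the yolk syncytial layer markers split the other way in the 2 treatments, their summed level being 11.9 and 14.2 in RA embryos and 14.4 and 12.1 in untreated embryos.

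**Figure D1:**
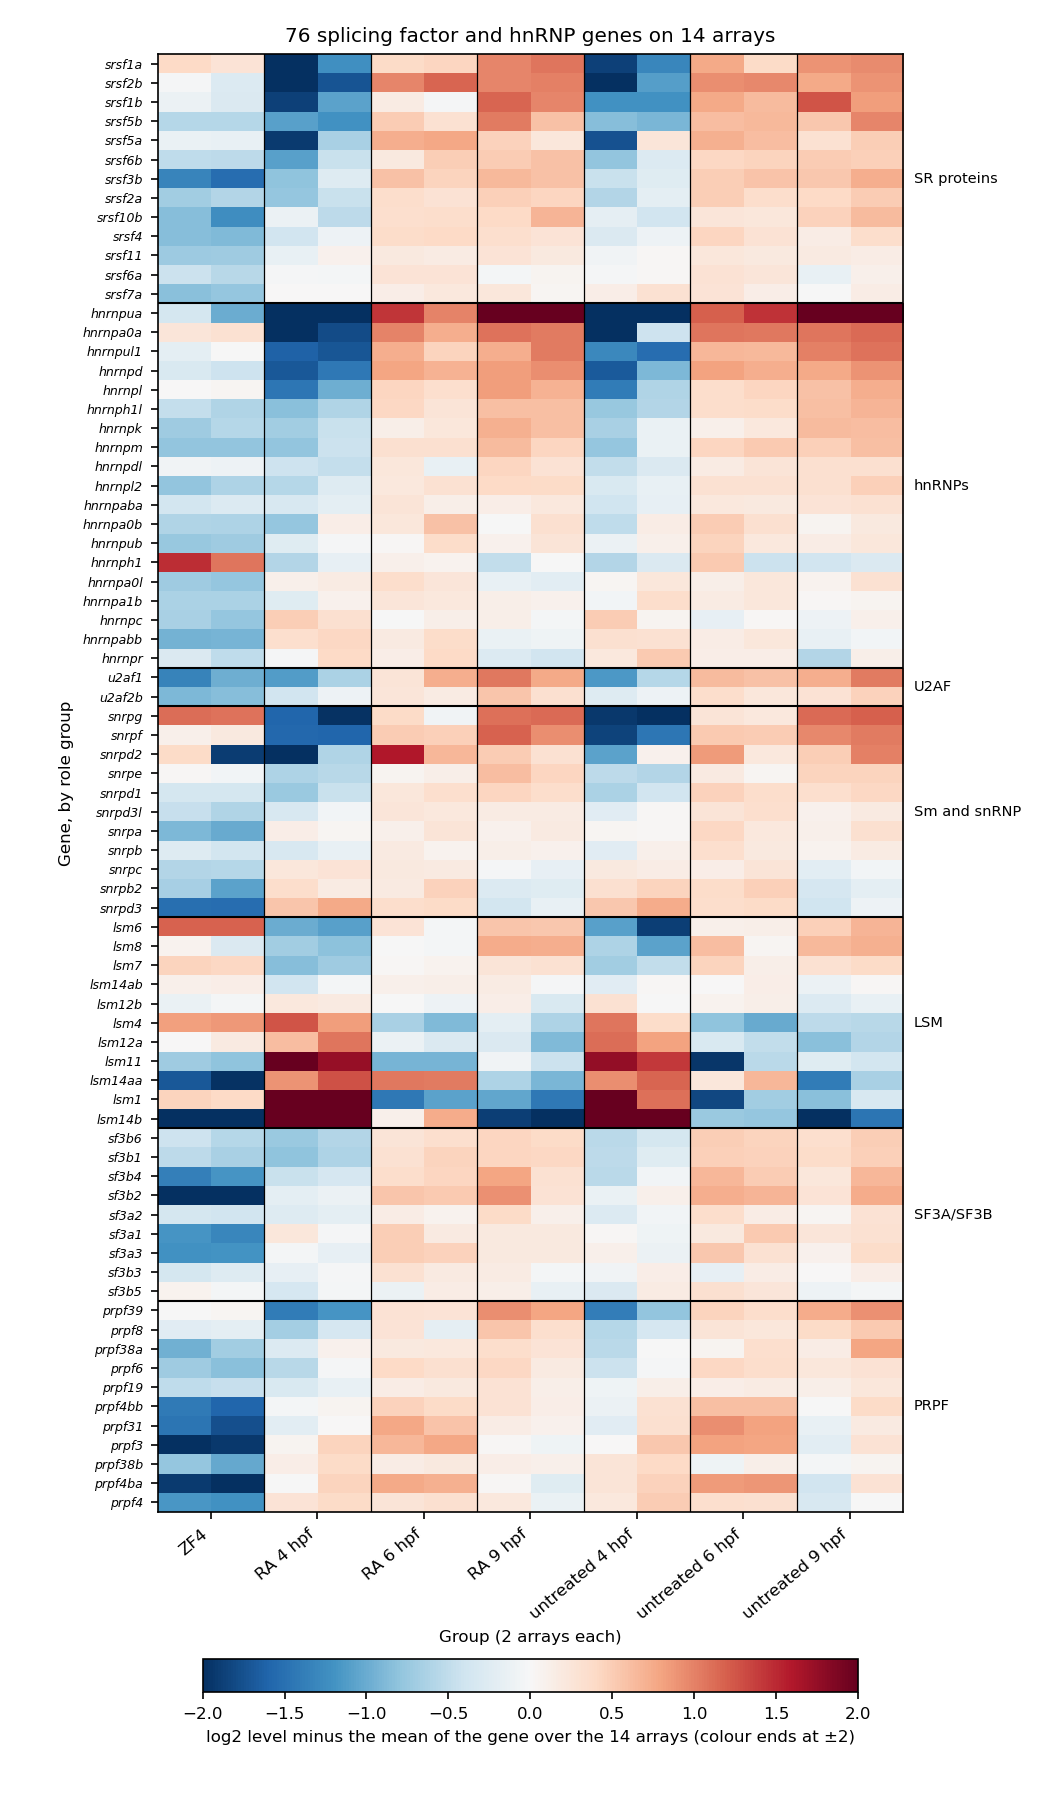
Heat map of the 76 genes (rows, by role group) on the 14 arrays (columns, 2 per group); colour gives the log2 level minus the gene's mean over the 14 arrays, with the colour scale ending at ±2. Most rows are blue at 4 hpf and red at 6 and 9 hpf in both treatments, ZF4 is blue in most rows, and several LSM rows run the opposite way through the stages.

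The comparison of 6 with 4 hpf asks what happened to these genes while the zygotic genome took over from the maternal supply. In untreated embryos 41 of the 76 rose and 5 fell, with a median change of 0.52. Of all probe sets 19.1% rose and 20.9% fell, with a median change of 0.05. With 1 probe set per named gene the shares were 19.0% and 26.2%. Because most of these genes read high on the array, they were also set beside the 2051 named genes with a mean above 9, of which 35.8% rose and 20.5% fell. Of the 65 splicing genes above that level, 38 rose and 1 fell. That mean was taken over all 14 arrays, those compared here included, so a gene's own change helped to set its class. lsm14b, lsm12a and lsm11 had untreated 4 hpf means of 10.7, 9.88 and 9.27 but means over all arrays of 7.46, 8.92 and 7.69. They fell and were thereby left out, as was lsm1 (9.115 and 7.38). The scarcity of falls among the 65 is therefore not a result about the set. All 5 genes that fell encode LSM proteins, and no gene of another role group fell. The counts by role group given below stand beside the same shares, and groups so small were not tested against them.

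Between 6 and 9 hpf the set changed little, as did the array as a whole. At 9 vs 6 hpf in untreated embryos 1 gene rose and 5 fell, with a median change of -0.02. Of all probe sets 4.37% rose and 5.74% fell, with a median change of 0.01. Over the whole interval, 35 genes were higher and 11 lower at 9 than at 4 hpf, with a median change of 0.46. The background shares for that comparison were 21.8% higher and 24.3% lower over all probe sets, and 22.0% and 29.7% over named genes. Over named genes with a mean above 9 they were 36.9% and 26.6%, and 31 of the 65 splicing genes of that class were higher and 6 lower. The class was again set by a mean that includes the arrays compared. No stage comparison within untreated embryos was passed by 22 of the 76 genes, a count that was not made over all probe sets.

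**Figure D2:**
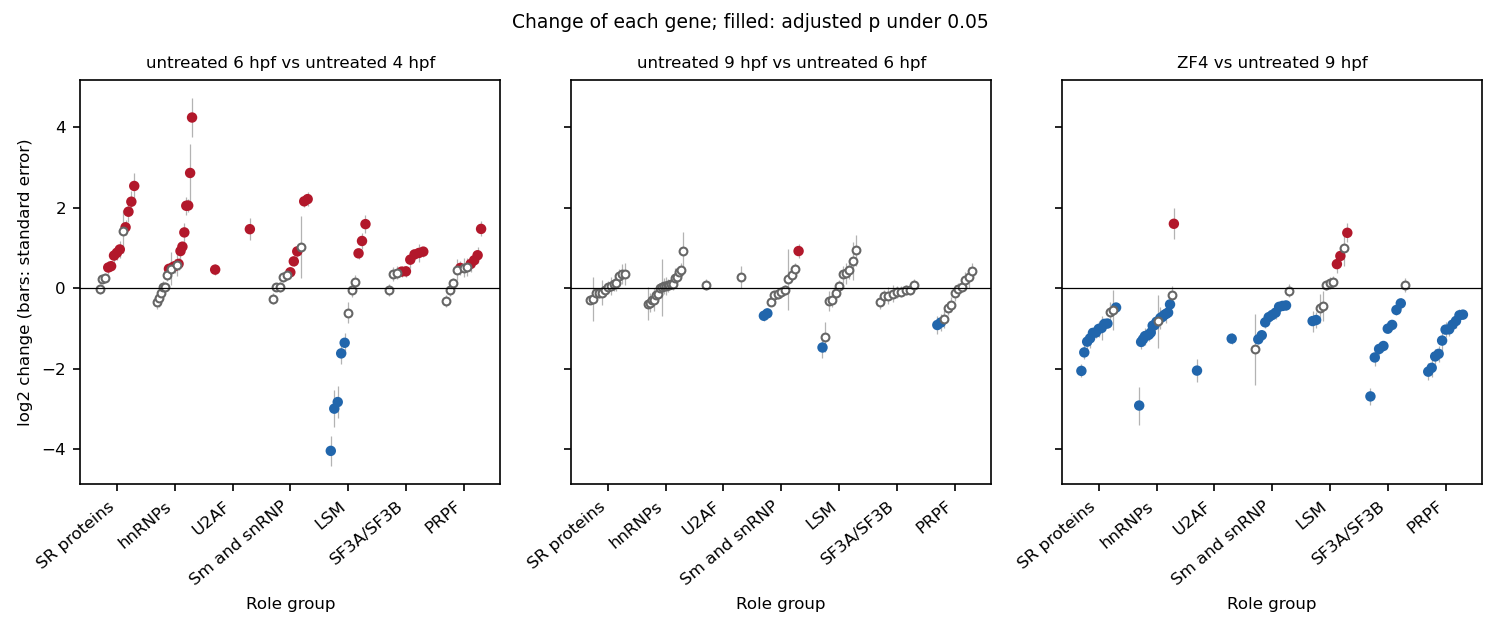
Log2 change of each of the 76 genes (points, with standard error bars) by role group in 3 comparisons; filled points passed the test (red higher, blue lower). At 6 vs 4 hpf all falls are in the LSM group, between 9 and 6 hpf few points are filled, and in ZF4 59 genes are lower and 4 higher than in untreated 9 hpf embryos.

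The SR proteins moved in 1 direction between 4 and 6 hpf: 9 of 13 rose and none fell. The largest rise was that of srsf2b, 1 of the 2 zebrafish copies of the SR protein long known as SC35. It read 10.2 and 10.2 in untreated 6 hpf embryos, against 7.16 and 8.16 in untreated 4 hpf embryos. The change was 2.54 ± 0.31 (SE of the limma fit, 2 arrays per group, adjusted p = 0.00016). Each ± value given here is such an SE, in which all groups of a fit share 1 estimate of spread. The paralog srsf2a read 11.9 and 11.7 at 6 hpf, against 10.8 and 11.2 at 4 hpf, and rose by 0.81 ± 0.15. For both genes the 6 hpf arrays lay above the 4 hpf arrays without overlap, and the 4 hpf arrays lay further apart from each other than the 6 hpf arrays did.

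The copies of SRSF1, the first SR protein to be purified as a splicing factor, rose together. srsf1a read 10.9 and 10.5 in 6 hpf embryos, against 8.30 and 8.85 in 4 hpf embryos, and rose by 2.15 ± 0.28. srsf1b read 9.57 and 9.43, against 7.59 and 7.60, and rose by 1.90 ± 0.26, while its second probe set rose by 2.53. By 9 hpf the changes from 4 hpf stood at 2.51 ± 0.28 for srsf1a and 2.26 ± 0.26 for srsf1b.

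Other SR genes rose by less. srsf5b rose by 1.52 ± 0.19, srsf6b by 0.97 ± 0.22, srsf3b, which encodes the smallest SR protein, by 0.88 ± 0.17, srsf4 by 0.55 ± 0.13 and srsf10b by 0.52 ± 0.16. The 4 that did not pass were srsf5a, srsf6a, srsf7a and srsf11, and among these srsf7a (-0.02) and srsf11 (0.23) were already at 11.7 to 12.1 in untreated 4 hpf embryos. Copies of a gene thus did not always pass together. srsf5a read 11.6 and 11.5 at 6 hpf, against 9.15 and 11.1 at 4 hpf, so that a change of 1.41 ± 0.54 in the mean did not pass (adjusted p = 0.059), whereas srsf5b, at 10.8 and 10.8 against 9.33 and 9.28, did. At 9 against 4 hpf srsf6b was higher by 1.02 ± 0.22 and srsf6a, with a difference of -0.02 ± 0.11, did not pass. The sign of the srsf6a value turned when the arrays were shifted to a common median (0.11) or when the median of its 3 probe sets was used (0.45).

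Of the hnRNPs, 11 of 19 rose by 6 hpf and none fell. The gene with the largest rise in the whole set was hnrnpua, a copy of HNRNPU, which is also known as scaffold attachment factor A. It read 8.34 and 8.60 in untreated 6 hpf embryos and 9.44 and 9.35 in untreated 9 hpf embryos, against 4.18 and 4.27 in untreated 4 hpf embryos. Both 4 hpf values lay below background, so the level at 6 hpf was at least 8.99-fold higher and that at 9 hpf at least 17.1-fold higher than at 4 hpf (adjusted p = 9.8e-05 and 1.6e-05). Its paralog hnrnpub was high throughout, at 11.3 and 11.5 at 4 hpf, 11.9 and 11.6 at 6 hpf and 11.6 and 11.7 at 9 hpf, and passed neither comparison with 4 hpf. Its other 2 probe sets both rose at 6 hpf, 1 of them with both 4 hpf arrays below background.

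A similar pair was hnrnpa0a and hnrnpa0b, copies of an hnRNP of the A/B family. hnrnpa0a read 11.9 and 11.9 in untreated 6 hpf embryos and 11.9 and 11.9 in untreated 9 hpf embryos, against 7.61 and 10.4 in untreated 4 hpf embryos. The rise of 2.87 ± 0.71 at 6 hpf passed (adjusted p = 0.0088), and all 3 of its probe sets rose, by 2.06 to 3.20. hnrnpa0b read 13.1 and 12.9 at 6 hpf, against 12.1 and 12.8 at 4 hpf, and its difference of 0.59 ± 0.29 did not pass, although 2 of its other 3 probe sets rose. hnrnpaba and hnrnpabb, also of the A/B family, parted by 9 hpf. hnrnpaba read 12.2 and 12.3 at 9 hpf, against 11.6 and 11.8 at 4 hpf, and was higher by 0.56 ± 0.11, while hnrnpabb read 12.5 and 12.6, against 13.0 and 13.0, and was lower by 0.42 (-0.42 ± 0.09, adjusted p = 0.0028). In neither gene did the arrays of the 2 stages overlap.

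Further hnRNP genes also rose between 4 and 6 hpf. hnrnpul1, which encodes a relative of HNRNPU, read 10.9 and 10.8 at 6 hpf, against 8.90 and 8.67 at 4 hpf, and rose by 2.06 ± 0.16. hnrnpd, whose product AUF1 binds AU-rich elements in messenger RNAs, read 10.4 and 10.3, against 7.92 and 8.69, and rose by 2.05 ± 0.22. hnrnpl, whose product binds CA repeats, rose by 1.39 ± 0.23 and hnrnph1l by 1.03 ± 0.12. Smaller rises were those of hnrnpm (0.93), hnrnpdl (0.61), hnrnpk (0.55), hnrnpl2 (0.52) and hnrnpaba (0.48). The 8 that did not pass included hnrnpc, whose product binds uridine tracts of nascent transcripts (-0.35 ± 0.16), hnrnpa1b, a copy of the exon-silencing HNRNPA1 (0.04 ± 0.14), and hnrnpa0l (0.04 ± 0.10), whose probe set bears the array's suffix for probes shared by several transcripts.

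**Figure D3:**
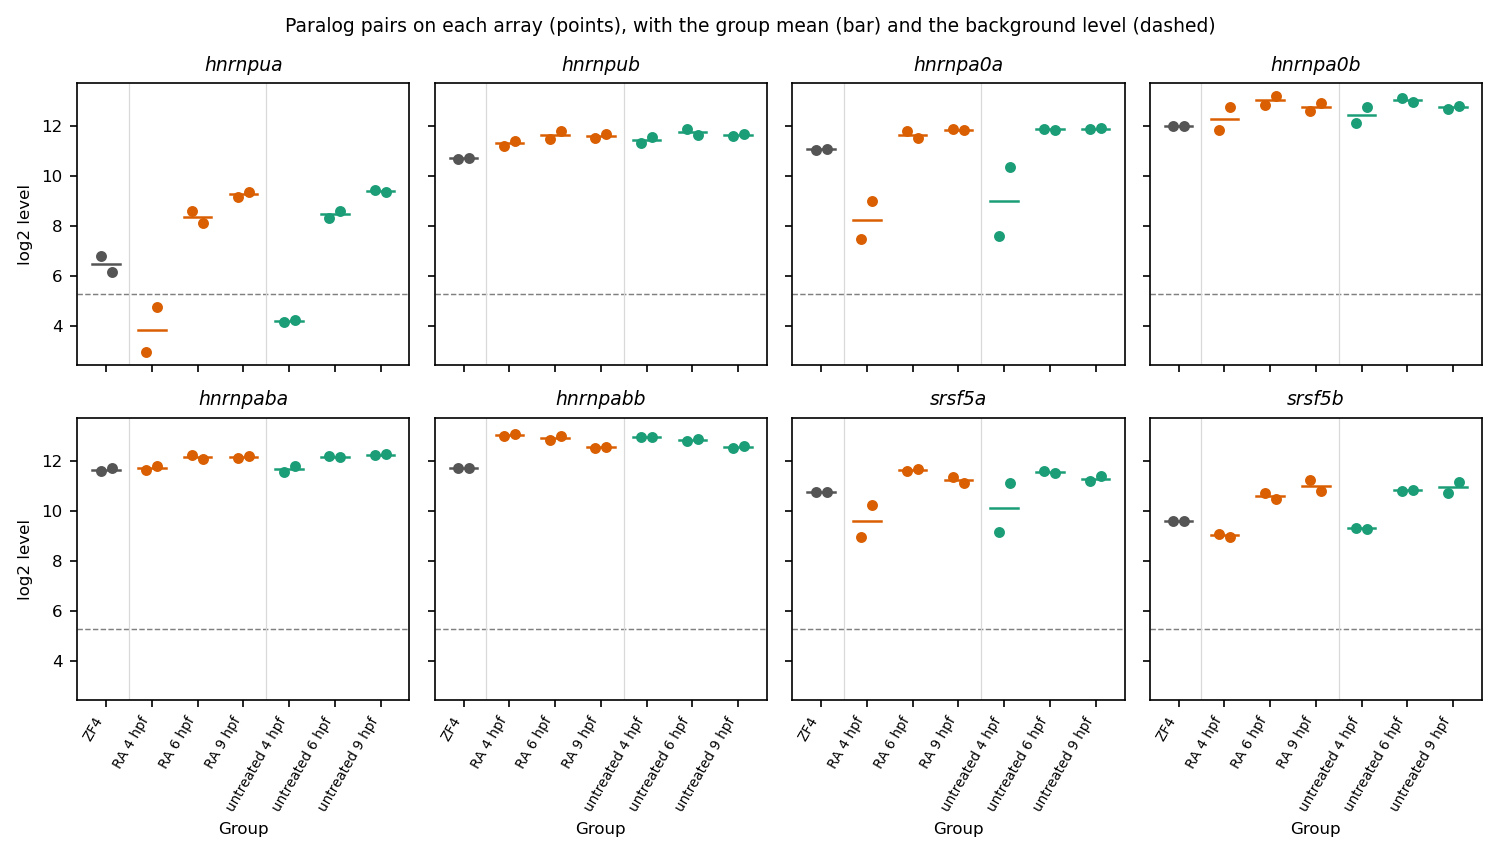
Log2 level on each array (points; bars are group means of 2 arrays) of 4 paralog pairs in ZF4, RA embryos and untreated embryos; the dashed line is background. hnrnpua lies below background at 4 hpf and hnrnpub near 11 to 12 in every embryo group, and the 2 arrays at 4 hpf lie far apart for hnrnpa0a and srsf5a.

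Both U2AF genes rose by 6 hpf. u2af1 encodes the small subunit, which reads the AG at the end of the intron. It read 8.70 and 8.64 in untreated 6 hpf embryos, against 6.90 and 7.49 in untreated 4 hpf embryos, and rose by 1.47 ± 0.28. u2af2b, a copy of the large subunit that binds the polypyrimidine tract, rose by 0.46 ± 0.14, and its second probe set rose by 0.65. The call was lost with quantile normalization (0.28), without the intensity trend, and on leaving out the first untreated 4 hpf array (0.39) or either untreated 6 hpf array (0.40 and 0.53).

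Among the Sm proteins the change was uneven. The ring is built from SNRPB, SNRPD1, SNRPD2, SNRPD3, SNRPE, SNRPF and SNRPG, a copy of each per snRNP. snrpg read 10.4 and 10.3 in untreated 6 hpf embryos and 11.2 and 11.3 in untreated 9 hpf embryos, against 8.20 and 8.08 in untreated 4 hpf embryos. It was the single gene of the set to rise again between 6 and 9 hpf (0.93 ± 0.18, adjusted p = 0.01), and its change over the whole interval was 3.14 ± 0.18. snrpf read 11.1 and 11.1 at 6 hpf and 11.5 and 11.6 at 9 hpf, against 8.73 and 9.14 at 4 hpf, a change of 2.16 ± 0.15 by 6 hpf.

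The other ring genes moved less, and 1 moved the opposite way. At 6 hpf snrpd1 was higher by 0.92 ± 0.13 and snrpe by 0.67 ± 0.11, while snrpb, with 0.33 ± 0.13, did not pass. snrpd3 read 10.8 and 11.1 in untreated 9 hpf embryos, against 11.7 and 11.95 in untreated 4 hpf embryos, and fell by 0.89 (-0.89 ± 0.14, adjusted p = 0.00039). snrpd3l, a second zebrafish gene named for SNRPD3, read 11.8 and 11.9 at 6 hpf, against 11.3 and 11.6 at 4 hpf, and rose by 0.40 ± 0.12. Thus of the 2 genes named for this ring protein 1 was lower by 9 hpf and the other higher at 6 hpf, with no overlap of the arrays in either comparison. They did not pass in opposite directions in the same comparison. At 6 vs 4 hpf snrpd3 did not pass (-0.265). At 9 vs 4 hpf snrpd3l did not pass, with a mean of 11.709 against 11.476.

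The remaining snrp genes encode proteins of U1 and U2 snRNPs. snrpb2, the U2 protein B double prime, read 10.6 and 10.8 at 9 hpf, against 11.3 and 11.4 at 6 hpf, and fell by 0.68 (-0.68 ± 0.13). snrpc, the C protein of the U1 snRNP that contacts the start of the intron, was lower at 9 than at 4 hpf by 0.31 (-0.31 ± 0.10). snrpa, the A protein of that particle, differed by 0.19 ± 0.12 and did not pass.

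The LSM group divided. LSM proteins 2 to 7 are shared by a pair of rings: with LSM1 they form a cytoplasmic ring that promotes decapping and decay of messenger RNA, and with LSM8 a nuclear ring that binds U6. Of 11 lsm genes 3 rose and 5 fell by 6 hpf. lsm8 read 10.2 and 9.60 in untreated 6 hpf embryos, against 8.93 and 8.49 in untreated 4 hpf embryos, and rose by 1.18 ± 0.21. lsm1 read 5.56 and 6.68 at 6 hpf, against 9.74 and 8.49 at 4 hpf, and fell by 2.99 (-2.99 ± 0.47, adjusted p = 0.00066). The genes for the members that set the nuclear and the cytoplasmic ring apart therefore changed in opposite directions, with no overlap between stages in either.

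The shared ring members did not move as one. lsm6 read 10.4 and 10.4 at 6 hpf, against 9.18 and 8.38 at 4 hpf, and rose by 1.60 ± 0.23. lsm7 read 11.2 and 10.9, against 10.1 and 10.3, and rose by 0.87 ± 0.14. lsm4 read 8.75 and 8.56, against 10.6 and 9.93, and fell by 1.62 (-1.62 ± 0.25). The other shared members were not among the 76 genes.

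The largest fall belonged to lsm14b, a relative of the P-body protein LSM14A; in frog and mouse oocytes these proteins bind stored, untranslated messenger RNA. It read 6.72 and 6.68 in untreated 6 hpf embryos and 4.97 and 6.00 in untreated 9 hpf embryos, against 11.03 and 10.5 in untreated 4 hpf embryos. The change was -4.04 ± 0.37 at 6 hpf and -5.26 ± 0.37 at 9 hpf (adjusted p = 3.9e-05 and 3.8e-06), and 1 of the 2 arrays at 9 hpf lay below background. lsm14aa, a copy of LSM14A, fell later: it read 7.47 and 8.22 at 9 hpf, against 9.09 and 9.53 at 6 hpf, a change of -1.47 ± 0.27 (adjusted p = 0.0076). Of its other 2 probe sets 1 gave -0.26 and did not pass, and the other lay below background at both stages. The call was also lost without the second untreated 6 hpf array (-1.25) or the first untreated 9 hpf array (-1.09). lsm14ab passed no stage comparison and read 10.1 to 10.5 on every untreated array.

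lsm11 encodes a protein of the U7 snRNP, which processes the ends of histone transcripts. It read 5.74 and 7.15 at 6 hpf, against 9.44 and 9.10 at 4 hpf, and fell by 2.83 (-2.83 ± 0.39), and both of its probe sets fell. lsm12a read 8.61 and 8.43, against 10.03 and 9.72, and fell by 1.36 (-1.36 ± 0.24) in parallel with its other 2 probe sets, whereas lsm12b, with -0.05 ± 0.17, did not pass. The fall of these LSM genes went with that of the maternal markers, whose summed level was 11.7 and 11.9 in untreated 6 hpf embryos and 9.22 and 9.81 in untreated 9 hpf embryos, against 15.2 and 14.7 in untreated 4 hpf embryos; all 9 of those markers fell. Whether the 2 are linked was not tested.

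**Figure D4:**
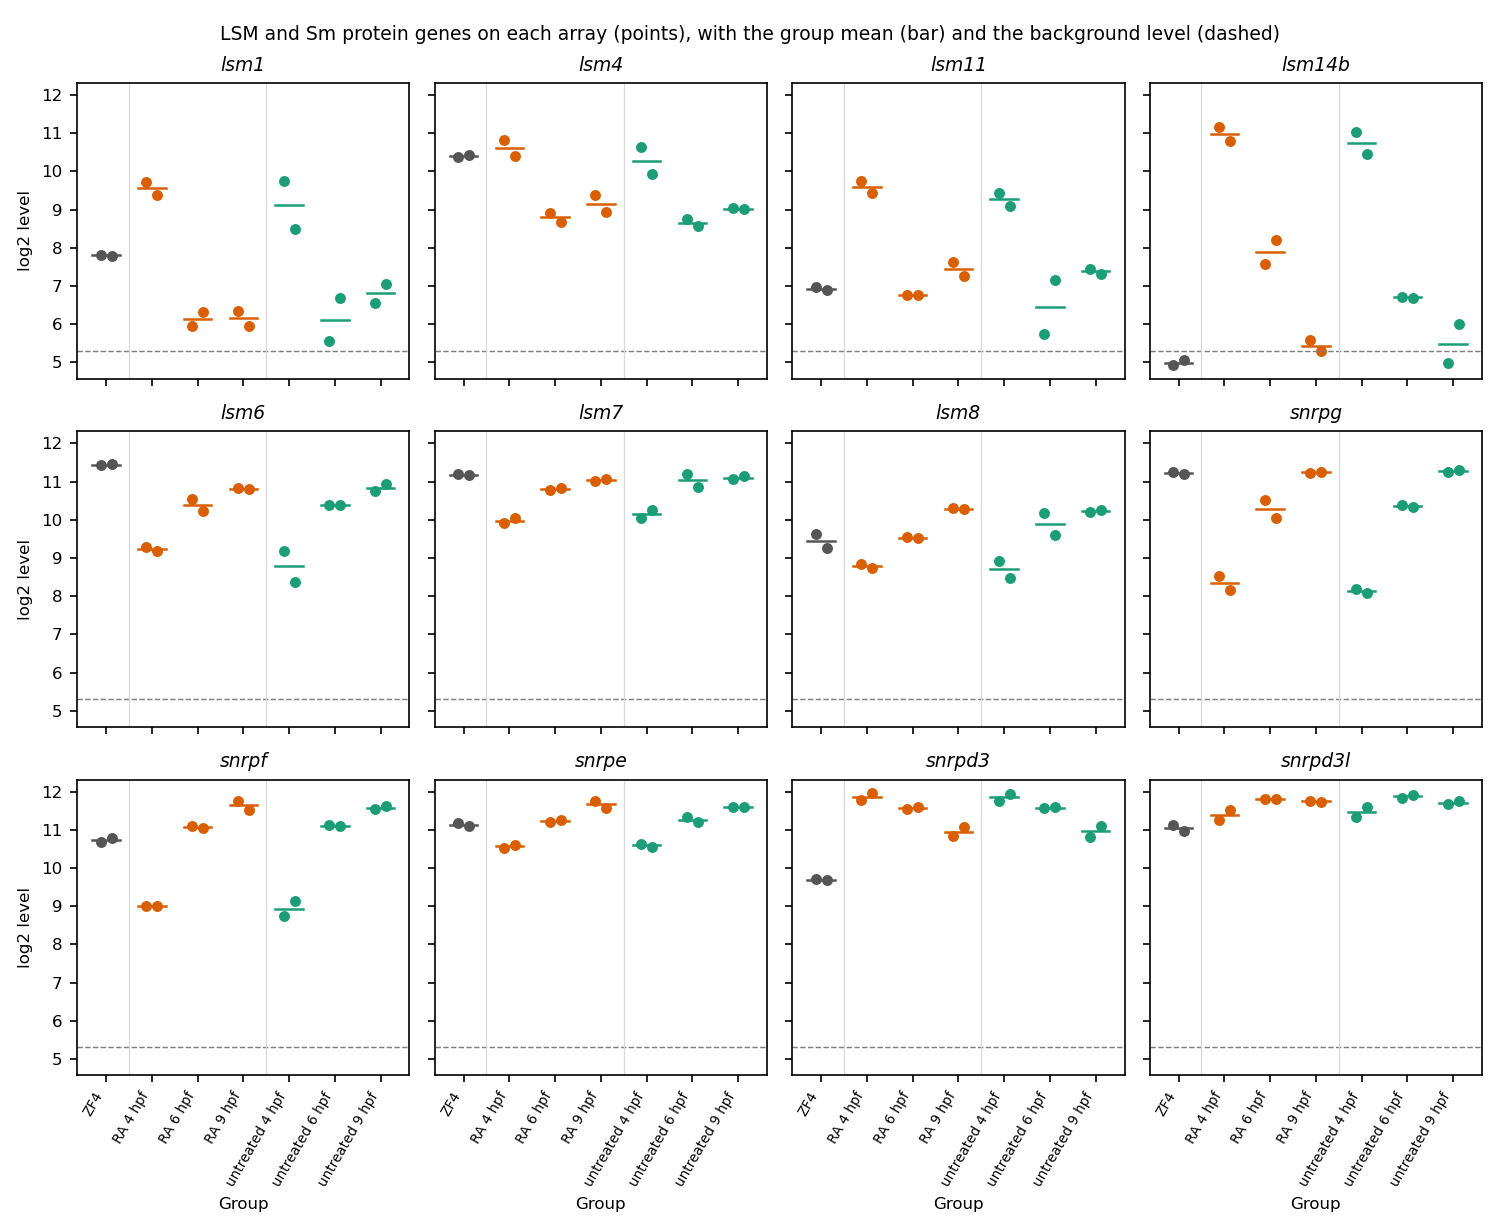
Log2 level on each array (points; bars are group means of 2 arrays) of 7 LSM and 5 Sm protein genes in ZF4, RA embryos and untreated embryos; the dashed line is background. lsm1, lsm4, lsm11 and lsm14b are high at 4 hpf and low at 6 hpf in both treatments, lsm6, lsm7, lsm8, snrpg and snrpf run the opposite way, and snrpd3 falls at 9 hpf while snrpd3l does not.

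The subunits of SF3A and SF3B, which belong to the U2 snRNP and hold the branch point, rose modestly: 6 of 9 passed at 6 hpf and none fell. sf3b6, whose product p14 touches the branch point adenosine, rose by 0.91 ± 0.13, sf3b4 by 0.88 ± 0.22 and sf3b1, which encodes the largest SF3B subunit, by 0.84 ± 0.13. sf3b1 read 11.6 and 11.6 in untreated 6 hpf embryos, against 10.6 and 10.9 in untreated 4 hpf embryos, and its second probe set rose by 1.33. sf3b3 (-0.04), sf3b5 (0.35) and sf3a1 (0.39) did not pass.

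Among the pre-mRNA processing factors 5 of 11 rose at 6 hpf and none fell. Of the named genes with a mean above 9, 35.8% rose and 20.5% fell, so the 5 rises are not read as a trait of this group. prpf39, a U1-associated factor, read 10.7 and 10.6 at 6 hpf, against 8.86 and 9.44 at 4 hpf, and rose by 1.48 ± 0.19. prpf8, whose product lies at the catalytic centre of the spliceosome, rose by 0.70 ± 0.18, its other 2 probe sets lying below background at both stages, and prpf31, a protein of the U4/U6 snRNP, by 0.82 ± 0.20. In untreated embryos prpf31 then fell: at 9 hpf it read 9.40 and 9.72, against 10.5 and 10.4 at 6 hpf, and was lower by 0.85 (-0.85 ± 0.20). In RA embryos it read 9.70 and 9.64 at 9 hpf, against 10.3 and 10.1 at 6 hpf, and the fall did not pass. prpf4ba, a copy of the kinase PRPF4B that acts on tri-snRNP proteins, read 9.08 and 9.75 at 9 hpf, against 10.3 and 10.3 at 6 hpf, and fell by 0.91 (-0.91 ± 0.23). prpf4 was lower at 9 than at 4 hpf by 0.53 (-0.53 ± 0.16), and prpf38a was higher by 0.74 ± 0.26 while prpf38b, a separate gene despite its name, gave -0.32 ± 0.15 and did not pass.

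The few changes between 6 and 9 hpf depended on single arrays. Without the first untreated 9 hpf array, which carried the high yolk syncytial layer markers, none of the 76 genes passed, although all 6 changes that had passed kept their direction. Without the first or the second untreated 6 hpf array 2 and 1 passed, and without the second untreated 9 hpf array 7 did. Within the 9 hpf groups the splicing genes ran against the yolk markers: 68 of 76 were higher on the second than on the first untreated array, and 18 of 76 were higher on the second than on the first RA array. Neither count was made over all probe sets, where the difference between the arrays of a group correlated at -0.38 between the treatments. Over probe sets with a mean above 7 it correlated at -0.78, so the split cannot be called particular to the splicing genes. The part of the yolk layer in the values was not tested.

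The 4 hpf arrays also split within each group. The median difference of the second from the first array over the 76 genes was 0.22 in RA embryos and 0.21 in untreated embryos, and 57 genes read higher on the second array in each treatment. In 68 genes the sign of this difference was the same in both treatments. No such counts were made over all probe sets, where the difference between the arrays correlated at 0.27 between the treatments, and at 0.72 over those with a mean above 7. Across the 76 genes, the difference between the 2 untreated 4 hpf arrays correlated with the change from 4 to 6 hpf in RA embryos (Pearson's r = 0.61), and that between the 2 RA 4 hpf arrays with the change in untreated embryos (r = 0.52); these pairs share no array, but genes are not independent replicates. At the other stages the median absolute difference between arrays of a group was 0.09 to 0.14, against 0.26 at 4 hpf in each treatment. The SEs share 1 estimate of spread over all embryo groups, so they do not show this wider spread at 4 hpf. Without the first untreated 4 hpf array, 27 genes rose and 5 fell at 6 hpf, and without the second 44 rose and 6 fell. The enveloping layer markers split the same arrays the same way, and their part in the values was not tested.

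The same interval in RA embryos gave a like picture on separate arrays, although the RA and the untreated 4 hpf arrays shared the split described above. From 4 to 6 hpf 44 genes rose and 5 fell, with a median change of 0.53, where 21.2% of all probe sets rose and 19.3% fell. The rises of both treatments had 39 genes in common, 88.6% of those in RA embryos and 95.1% of those in untreated embryos, and the 5 falls were the same 5 LSM genes. Across the 76 genes the changes correlated with r = 0.97, and 72 had the same sign. Shared calls, correlation and signs were not computed over all probe sets, so this likeness cannot be called particular to the set. hnrnpua read 8.59 and 8.14 in RA 6 hpf embryos, against 2.96 and 4.78 in RA 4 hpf embryos, at least 8.36-fold higher. srsf2b read 10.2 and 10.4, against 6.80 and 7.53, and rose by 3.16 ± 0.31. lsm1 read 5.95 and 6.31, against 9.72 and 9.39, and fell by 3.43 (-3.43 ± 0.47). Without the first RA 4 hpf array 29 genes rose and 5 fell. The count includes snrpd2, whose values lay below background on 3 of these 4 arrays.

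**Figure D5:**
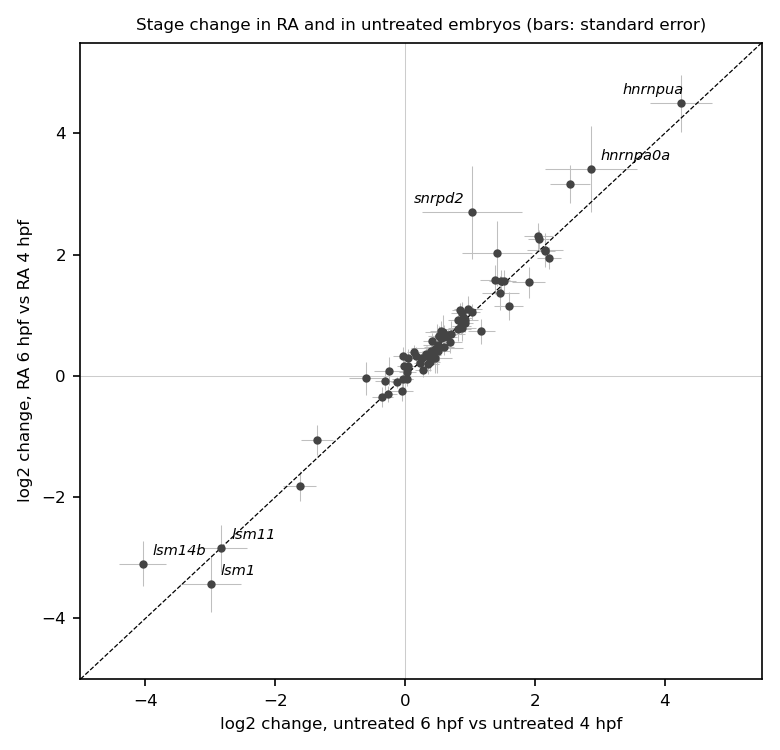
Log2 change from 4 to 6 hpf of each of the 76 genes in RA embryos (vertical axis) against that in untreated embryos (horizontal axis), with standard error bars and the line of equality dashed. Points follow the line from lsm14b, lsm1 and lsm11 at the lower left to hnrnpua at the upper right; snrpd2, which lies near background, is the farthest above it.

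From 6 to 9 hpf in RA embryos 5 genes rose and 8 fell, close to the shares of all probe sets, of which 6.77% rose and 9.26% fell. The rises included snrpg (0.96 ± 0.18), snrpf (0.56 ± 0.15), snrpe (0.44 ± 0.11), lsm8 (0.76 ± 0.21) and srsf1b (1.00 ± 0.26), and snrpg alone also passed in untreated embryos. lsm14b read 5.59 and 5.30 in RA 9 hpf embryos, against 7.57 and 8.20 in RA 6 hpf embryos, and fell by 2.44 (-2.44 ± 0.37), with the second RA 9 hpf array just below background and the first just above it. Of the 8 falls 4 were shared with untreated embryos, those of lsm14aa, prpf4ba, snrpb2 and snrpd3. Leaving out any 1 of the 4 arrays gave 3 to 6 genes in place of 13, with the fewest without the second RA 6 hpf array. The split between rises and falls moved to 5 and 4 with a common median, and to 3 and 8 with quantile normalization.

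RA itself left no call in this set. Against untreated embryos of the same stage none of the 76 genes passed at 4, 6 or 9 hpf, where 0.0903%, 0.284% and 0% of all probe sets did. At an unadjusted p under 0.05, 1, 3 and 1 genes of the set would be counted, against 846, 1164 and 424 of all 15502 probe sets. The 95% interval of the RA effect lay within ±1 for 68, 67 and 71 of the 76 genes at 4, 6 and 9 hpf, and within ±0.5 for 36, 39 and 44, so that a change of 2-fold or more lay outside the interval of most genes at each stage.

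The largest of these differences with a level above background was that of lsm14b at 6 hpf. It read 7.57 and 8.20 in RA embryos, against 6.72 and 6.68 in untreated embryos, a difference of 1.18 with a 95% interval of 0.37 to 2.00 and an adjusted p of 0.41. srsf1b at 6 hpf read 8.97 and 8.79 in RA embryos, against 9.57 and 9.43 in untreated embryos (-0.62, interval -1.20 to -0.05). At 9 hpf hnrnpa0l read 12.6 and 12.5, against 12.8 and 13.0 (-0.37, interval -0.60 to -0.14, adjusted p = 1.00). In these 3 genes the groups did not overlap, and no difference passed the adjustment. With only 2 arrays per group, arrays can separate in this way without a difference between the groups. At 4 hpf 3 of the 76 genes lay wholly higher and 7 wholly lower in RA embryos, at 6 hpf 10 and 22, and at 9 hpf 7 and 4. Such separation was not counted over all probe sets, so no lean of the set can be read from it. The median RA difference at 6 hpf was -0.03 in the set and -0.02 over all probe sets. The stage changes themselves also did not differ between treatments by the direct test. No gene of the set passed for the 6 vs 4 hpf or the 9 vs 6 hpf change, where 0.00645% of all probe sets did in each. At an unadjusted p under 0.05 the counts were 0 and 2 genes of the set, against 819 and 544 of all 15502 probe sets.

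In ZF4 most of the set was lower than in the embryo at 9 hpf. Against untreated 9 hpf embryos 59 of 76 genes were lower and 4 higher, with a median difference of -0.86 where that of all probe sets was -0.08. Of all probe sets 21.6% were higher and 23.8% lower, and of named genes 25.3% and 26.2%. The genes with a mean above 9 as a class also leaned to the lower side, with 25.4% higher and 45.0% lower and a median of -0.35; of the 65 splicing genes of that class 2 were higher and 54 lower, with a median of -0.88. Against untreated 4 hpf embryos 36 were lower and 16 higher, with 27.5% of all probe sets lower and 23.6% higher. The genes with a mean above 9 again leaned lower there, with 895 of 2051 lower, 654 higher and a median of -0.22. Of the 65 splicing genes of that class 31 were lower and 13 higher, with a median of -0.34, so the set stood nearer to its class than at 9 hpf. In both comparisons the mean that set the class includes the arrays compared, so membership is not independent of the differences. Among all 76 genes, 31 were lower in ZF4 than at both stages and 10 lay between them, below 9 hpf and above 4 hpf. Of the 41 genes that rose by 6 hpf 36 were among the 59 that were lower in ZF4 than at 9 hpf, but those 59 made up most of the 76. These overlaps were not counted over all probe sets, and a link between the rise and the ZF4 level was not tested. Both comparisons with embryos use the same ZF4 arrays.

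The lower genes came from every role group. All 11 prpf genes, 8 of 9 sf3, 16 of 19 hnRNP, 11 of 13 srsf, 9 of 11 snrp and both u2af genes were lower, but only 2 of 11 lsm genes. sf3b2, an SF3B subunit that touches RNA near the branch point, read 8.10 and 8.32 in ZF4, against 10.7 and 11.1 in untreated 9 hpf embryos, a difference of -2.69 ± 0.20 (adjusted p = 1.1e-06). prpf3, of the U4/U6 snRNP, read 7.32 and 7.53, against 9.25 and 9.75 (-2.07 ± 0.22). u2af1 read 6.72 and 7.08, against 8.78 and 9.10 (-2.05 ± 0.28). In none of these did the groups overlap.

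Other large differences were those of hnrnpua, at 6.80 and 6.17 in ZF4 against 9.44 and 9.35 in embryos (-2.92 ± 0.47), and srsf3b, at 9.73 and 9.53 against 11.6 and 11.8 (-2.05 ± 0.16). The kinase gene prpf4ba differed by -1.98 ± 0.23 and its paralog prpf4bb by -1.69 ± 0.18. sf3b4 differed by -1.72 ± 0.21, srsf10b, whose product represses splicing when dephosphorylated, by -1.59 ± 0.17, hnrnpm by -1.33 ± 0.18, snrpd3 by -1.27 ± 0.13, u2af2b by -1.25 ± 0.13 and snrpa by -1.17 ± 0.11. In contrast snrpg, at 11.2 and 11.2 in ZF4 against 11.2 and 11.3 in embryos, differed by -0.06 ± 0.16, and sf3b5 by 0.08 ± 0.17.

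The 4 genes that were higher in ZF4 were hnrnph1, lsm4, lsm12a and lsm6. hnrnph1, whose product binds runs of guanosine, read 7.79 and 7.38 in ZF4, against 5.94 and 6.02 in untreated 9 hpf embryos, a difference of 1.60 ± 0.38. lsm4 read 10.4 and 10.4, against 9.04 and 9.01 (1.38 ± 0.24), so that the ZF4 level lay within the range of the 4 hpf embryos. lsm6 read 11.4 and 11.4, against 10.7 and 10.9 (0.60 ± 0.21), a call that was lost with a common median (0.51), without the intensity trend, without the RA arrays in the fit, and on leaving out any 1 of the 4 arrays (0.50 to 0.70). lsm12a was higher by 0.80 ± 0.23 in its main probe set only, the other 2 giving -0.17 and 0.15, and the call was lost without the first untreated 9 hpf array (0.68) or the second ZF4 array (0.72). lsm14b lay below background in ZF4, at 4.93 and 5.06, and was at least 43.6-fold lower there than in untreated 4 hpf embryos.

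Where genes had several probe sets, the ZF4 comparison did not always give 1 answer. The 2 probe sets of hnrnpd passed in opposite directions, the main one with -1.19 and the other with 1.77, and of the 4 probe sets of hnrnpa0b 2 were lower and 1 was higher, the last with 1 of the 2 embryo arrays below background. The 3 probe sets of lsm14aa differed by -0.82, 0.48 and -1.62, of which the first alone passed and the last lay below background in both groups. The second probe set of prpf3, above background on all 4 arrays, differed by 0.08 and did not pass, where the main one differed by -2.07. The 2 or 3 probe sets of srsf1b, u2af2b, sf3b1, sf3a2 and hnrnpub were all lower. At 6 vs 4 hpf no gene had probe sets that passed in opposite directions.

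The ZF4 difference ran beside other contrasts of cell state. Of 12 cell cycle genes 8 were lower in ZF4 than in untreated 9 hpf embryos and none was higher. Of all probe sets 23.8% were lower and 21.6% higher. The summed level of the 12 genes was 13.7 on each ZF4 array, against 14.4 and 14.6 on the embryo arrays. Fibroblast and matrix markers were above background for 11 and 10 of 12 genes in ZF4, against 5 and 7 in embryos. Their part in the splicing gene values was not tested.

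The rest of the splicing machinery was followed through gene lists outside the 76. Of 43 further core spliceosome genes 24 rose and 3 fell at 6 vs 4 hpf in untreated embryos, with a median change of 0.67, and at 9 vs 4 hpf 17 were higher and 5 lower. crnkl1 (1.71 ± 0.23), xab2 (1.43 ± 0.18) and ess2 (1.38 ± 0.33), proteins of the activated spliceosome, had the largest changes at 9 vs 4 hpf. In ZF4 none was higher than in untreated 9 hpf embryos and 32 were lower, with snrnp40 (-2.58 ± 0.18), the helicase gene ddx42 (-2.27 ± 0.18) and ess2 (-2.15 ± 0.38) the lowest. These lists were scored only by their counts, to be read beside the shares of all probe sets. Those shares were 19.1% higher and 20.9% lower at 6 vs 4 hpf, and 21.8% and 24.3% at 9 vs 4 hpf. In ZF4 against 9 hpf they were 21.6% and 23.8%.

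The splicing regulators with other names, 59 in all, gave 30 rises and 6 falls at 6 vs 4 hpf and 28 and 7 at 9 vs 4 hpf. elavl2, which encodes an RNA-binding protein of the Hu family, fell by 3.39 (-3.39 ± 0.29) by 9 hpf. celf2 was at least 1.58-fold lower at 9 than at 4 hpf, and raly lay below background at both stages. In ZF4 6 were higher and 36 lower than at 9 hpf. The epithelial splicing regulators esrp1 and esrp2 lay below background there and were at least 20.5-fold and 5.05-fold lower, while pcbp4, below background in 9 hpf embryos, was much higher in ZF4, at a mean of 9.62.

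The list of 22 genes for snRNP assembly and snRNA modification, ran differently at the early stages. At 6 vs 4 hpf 3 rose and 10 fell, with a median change of -0.44, and at 9 vs 4 hpf 3 were higher and 10 lower. The largest falls by 9 hpf were those of mepcea (-2.42 ± 0.30), which caps the 7SK RNA, phax (-2.18 ± 0.25), which exports snRNAs from the nucleus, and snupn (-2.07 ± 0.31), which brings assembled snRNPs back. In ZF4 7 of these 22 genes were higher and 6 lower than at 9 hpf. Of all probe sets 21.6% were higher and 23.8% lower, so no lean of this list is read from the counts. clns1a, which delivers Sm proteins to the assembly machinery, was higher by 2.60 ± 0.27. usb1, the U6 end-processing enzyme, was higher by 3.82 ± 0.67 with 1 of the 2 embryo arrays below background, and mepceb was lower (-1.61 ± 0.26).

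Among 26 genes of the exon junction complex and mRNA export 6 rose and 2 fell at 6 vs 4 hpf, and 4 were higher and 6 lower at 9 vs 4 hpf. Of all probe sets 19.1% rose and 20.9% fell at 6 vs 4 hpf, and 21.8% were higher and 24.3% lower at 9 vs 4 hpf. No lean of this list at these stages is read from its counts. thoc3 was lower at 9 hpf (-1.15 ± 0.16), ddx39b, an export helicase, was higher (0.77 ± 0.25), and nxf1a was at least 3.20-fold lower. In ZF4 21 of the 26 were lower and 1 higher, with ddx39b at -2.71 ± 0.25, magoh at -2.52 ± 0.11 and acin1b at -2.09 ± 0.23. Of the 6 kinases of SR proteins outside the set none rose and 2 fell by 6 hpf, where 19.1% of all probe sets rose and 20.9% fell. So short a list cannot be told apart from those shares, and srpk1b and dyrk1aa lay below background at 4 and 6 hpf. At 9 vs 4 hpf clk2b (-1.13 ± 0.25) and srpk1a (-0.73 ± 0.15) were lower. In ZF4 3 were lower than at 9 hpf, srpk1a (-2.30 ± 0.15), clk2a (-1.64 ± 0.42) and clk2b (-1.20 ± 0.24).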

How the data were processed

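Total RNA of 14 samples was hybridised to Affymetrix zebrafish arrays. The authors processed the arrays with affy 2.15.2 (mas5 background correction and invariant set normalization), and the deposited values are log2 expression levels per probe set; the summary method and the correction for mismatch probes are not given in the sources used here. The study's methods name untreated Affymetrix embryos at 9 hpf, whereas the labels give 4, 6 and 9 hpf; groups follow the labels. Of 15617 probe sets, 115 controls were left out of the tests, 10795 had a single gene in the platform annotation, 135 several and 4572 none. All columns belonged to the 14 samples. Array precision is limited by 2 arrays per group, and read depth does not apply.

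Group means were fitted with limma 3.58.1 in R 4.3.3 (eBayes with an intensity trend, two-sided, Benjamini-Hochberg over 15502 probe sets). Embryo comparisons used the 12 embryo arrays and those with ZF4 all 14; the arrays of all groups in a fit share 1 estimate of spread. Where both arrays in a group failed to exceed background (95th percentile of 238 values of 17 tag control probe sets), a fold is a bound: the other group's mean over the higher of background and the dim mean. Alternatives were quantile normalization, a common median, log2(value + 32), a filter on low values, no intensity trend, other arrays in the fit, the median of a gene's probe sets, the replicate number as a block, and leaving out each array.

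The genes, the further lists and the tests were chosen with earlier results of these data known. Genes named were, per comparison, the 5 highest and 5 lowest changes that passed without overlap, the 2 largest per role group and direction at 6 vs 4 hpf, 9 vs 4 hpf and ZF4 vs 9 hpf, paralog pairs that parted, genes at background, and up to 3 per further list; other genes are given for the completeness of their group and were chosen after their values were seen. Of the further lists, 43 of 63, 59 of 85, 22 of 26 and 26 of 40 genes were on the array, and 7 of 12 SR kinases, 1 of them (prpf4bb) already in the set. Symbols of all 76 genes matched the RefSeq gene table. No promoter or protein sequence was used.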

Additional observations from a re-analysis of the deposited data

How the results depend on the processing

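The counts of genes that passed stayed within 1.5 times their main value under each alternative for the 6 vs 4 hpf, 9 vs 4 hpf and ZF4 comparisons and at 0 for the RA comparisons. The count for untreated 9 vs 6 hpf, 6 in the main analysis, was 1 without the intensity trend and 11 with ZF4 in the fit, and 0 to 7 on leaving out 1 array. That for RA 9 vs 6 hpf, 13 in the main analysis, was 3 without the intensity trend and 3 to 6 on leaving out 1 array. A group left with 1 array is assumed to vary like the others. The causes were not tested, beyond the fewer arrays in the leave-one-out fits. Shifting arrays to a common median put the median of all probe sets at 0.20 in place of 0.05 for untreated 6 vs 4 hpf, where 49 genes then rose and 5 fell, and at 0.19 in place of 0.06 for 9 vs 4 hpf. With quantile normalization 33 rose and 7 fell at 6 hpf.

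Of 863 pairs of a named change and an alternative, 816 kept direction and call, 39 lost the call, 2 gained it and 6 changed sign; of 432 pairs that left out an array, 355 kept both, 71 lost the call, 1 gained it and 5 changed sign. The sign changes at 9 vs 4 hpf, none in a gene that passed there, were hnrnpub (-0.043) and lsm14ab (-0.070) with quantile normalization, srsf6a with a common median (0.11) and with the median of its probe sets (0.45), and, leaving out an array, hnrnpa0b (-0.020 to 0.63), lsm14ab (-0.079 to 0.18) and srsf6a (-0.14 to 0.11). For lsm14aa in ZF4 the median level over its probe sets gave 0.22 against 9 hpf and 0.063 against 4 hpf, but it took different probe sets in the 2 groups, so neither value measures a change.

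The replicate numbers did not pair the arrays throughout. Deviations of same-numbered arrays of the treatments correlated at 0.27 at 4 hpf and -0.38 at 9 hpf over all probe sets, and at 0.72 and -0.78 over those with a mean above 7, so that the arrays ran together at 4 hpf and against their numbers at 9 hpf. Correlations between the other groups lay from -0.15 to 0.12. With the replicate block 45 genes passed at 6 vs 4 hpf, 7 at 9 vs 6 hpf, 47 at 9 vs 4 hpf, 50 and 13 in RA embryos, 0 in each RA comparison, and 63 and 53 for ZF4 against 9 and 4 hpf. Crossing the numbers at 9 hpf, chosen after seeing the data, left 0 genes in each RA comparison. Signal over background limits hnrnpua, lsm14b and snrpd2.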
